A study of Mus musculus with 24 samples.

Results

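The H3K27ac peaks of weekly prednisone–treated female myofibers were compared between day 4 and day 6 after the last injection. The day 4 list held 66251 peaks on the 19 autosomes (67503 in all) and the day 6 list held 121551 (123249 in all), so that 187802 of the 469078 peaks in the 8 lists of the study entered the comparison. A day 6 peak that shared no base pair with a day 4 peak was called gained, and a day 4 peak that shared none with a day 6 peak was called lost. All others were kept. Kept peaks were one-to-one, or several day 4 peaks lay in 1 day 6 peak (joined), or 1 day 4 peak was divided over several day 6 peaks (split). A one-to-one peak at least 1.5 times as long at day 6 was called widened, and one shortened by the same factor narrowed.

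Both groups were female C57BL/6 mice (C57BL/6J in the methods) that were 10 weeks old at the start and received 5 weekly i.p. injections of 1 mg/kg prednisone, a glucocorticoid. They differed in the day of harvest, 4 or 6 days after the last dose. Chromatin came from quadriceps myofibers isolated with collagenase and filtering, with 2 H3K27ac libraries and 1 input library per group. The comparison asks how the acetylated regions seen at day 4 stood 2 days later. Only 1 peak list was deposited per group and no values per library, so none of the differences between days has a replicate error or a test, and the 95% Wilson intervals in parentheses cover counting error only.

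Acetylation of lysine 27 on histone H3 is laid down by the acetyltransferases p300 and CBP and is found at active promoters and enhancers. Long stretches of it mark genes that define a cell type, and in adult myofibers these include genes of the contractile apparatus and of energy metabolism. Prednisone acts through the glucocorticoid receptor, a transcription factor that binds DNA at a palindrome with a spacer of any 3 bases and recruits the same acetyltransferases.

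The lists came from libraries of unequal depth. The day 4 list rested on 49.0 M H3K27ac tags and the day 6 list on 30.6 M, yet 11.9% of tags lay in peaks at day 4 and 47.3% at day 6. The lowest findPeaks Score, which is given in raw tags, was 24 at day 4 and 11 at day 6, or 4.90 and 3.59 per 10 M tags. More tags in peaks and a lower limit moved together with the larger list, and their part in the result was not tested.

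A few sequences at the center of gained and lost peaks are given as examples of their letters. The gained peaks shown are the promoter peaks of Zfp458, a zinc finger gene with the highest Score of all gained peaks, and of Ncapg, a condensin subunit gene, and an intergenic peak nearest to Smim41, which had most tags among those with a match to the glucocorticoid receptor letters. Of the lost peaks shown, 1 lies at the promoter of Ypel3 and the others are intronic. The latter lay in Klhl31, a kelch-like gene of muscle, in Mlip, a gene of a lamin-interacting muscle protein (most tags of lost peaks with a glucocorticoid receptor match), and in Pgm1 (the same for MEF2). Capitals mark matches on either strand to the SP/KLF letters GGGCGG, to the glucocorticoid receptor letters ACANNNTGT or to the MEF2 consensus. A match is a description of the letters and not a bound site. All are the plus strand of GRCm38.p6 (mm10) from RefSeq, read 5′ to 3′, and stretches of annotated exon were left out.
Ncapg, gained, chr5:45669715-45669925: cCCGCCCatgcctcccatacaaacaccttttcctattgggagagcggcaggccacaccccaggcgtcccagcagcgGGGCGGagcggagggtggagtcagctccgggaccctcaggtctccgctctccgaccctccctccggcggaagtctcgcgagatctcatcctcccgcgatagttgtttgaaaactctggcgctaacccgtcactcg
Zfp458, gained, chr13:67269116-67269415: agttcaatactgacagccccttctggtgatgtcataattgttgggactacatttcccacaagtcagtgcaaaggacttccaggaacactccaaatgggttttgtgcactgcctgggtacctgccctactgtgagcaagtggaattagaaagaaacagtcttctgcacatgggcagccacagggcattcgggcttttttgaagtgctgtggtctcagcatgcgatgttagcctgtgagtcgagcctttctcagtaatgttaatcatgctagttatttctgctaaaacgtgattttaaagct
Smim41, gained, chr15:101318958-101319257: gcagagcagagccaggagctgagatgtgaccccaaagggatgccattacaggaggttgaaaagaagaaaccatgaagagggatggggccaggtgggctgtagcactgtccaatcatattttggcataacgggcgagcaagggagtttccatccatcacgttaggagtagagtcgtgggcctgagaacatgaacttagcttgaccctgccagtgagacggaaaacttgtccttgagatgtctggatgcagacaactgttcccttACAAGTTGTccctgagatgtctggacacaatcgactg
Ypel3, lost, chr7:126776507-126776806: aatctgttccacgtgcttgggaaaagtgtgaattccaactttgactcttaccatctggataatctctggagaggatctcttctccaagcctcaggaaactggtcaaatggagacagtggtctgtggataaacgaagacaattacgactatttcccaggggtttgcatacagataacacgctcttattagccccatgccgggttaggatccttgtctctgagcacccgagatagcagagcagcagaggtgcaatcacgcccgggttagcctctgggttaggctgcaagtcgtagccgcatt
Klhl31, lost, chr9:77636897-77637196: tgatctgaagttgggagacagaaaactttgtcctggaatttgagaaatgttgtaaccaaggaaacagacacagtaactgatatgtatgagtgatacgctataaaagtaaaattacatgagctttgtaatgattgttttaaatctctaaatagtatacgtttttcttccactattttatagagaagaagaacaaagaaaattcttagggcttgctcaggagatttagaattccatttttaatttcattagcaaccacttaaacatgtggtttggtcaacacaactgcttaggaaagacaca
Mlip, lost, chr9:77310151-77310450: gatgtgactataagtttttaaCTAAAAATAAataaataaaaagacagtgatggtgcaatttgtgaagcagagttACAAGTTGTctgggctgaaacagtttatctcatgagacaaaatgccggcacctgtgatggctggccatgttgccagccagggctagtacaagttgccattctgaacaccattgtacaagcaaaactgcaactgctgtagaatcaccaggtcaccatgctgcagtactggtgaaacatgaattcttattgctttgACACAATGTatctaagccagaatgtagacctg
Pgm1, lost, chr4:99934464-99934763: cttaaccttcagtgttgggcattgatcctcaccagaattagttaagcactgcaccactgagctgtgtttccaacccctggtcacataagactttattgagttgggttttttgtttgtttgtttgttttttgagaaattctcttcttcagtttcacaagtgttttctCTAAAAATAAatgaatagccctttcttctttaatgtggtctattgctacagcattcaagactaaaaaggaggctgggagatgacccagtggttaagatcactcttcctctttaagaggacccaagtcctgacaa
The Ncapg stretch had a GC content of 64.5% with 18 CpG dinucleotides, and the Smim41 stretch had 51.0% with 6. The lost Ypel3 stretch had 49.3% with 10. The intronic lost stretches had 32.7% (Klhl31, 2 CpG), 41.0% (Mlip, 1 CpG) and 39.3% (Pgm1, 0 CpG), all below 42.7%, the lower quartile of lost peaks. The gained Zfp458 promoter stretch had 45.7%, the median of lost peaks.

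Of the day 6 peaks, 87826 of 121551 were gained (72.3%, 72.0–72.5), and of the day 4 peaks, 27766 of 66251 were lost (41.9%, 41.5–42.3). The remaining 38485 day 4 peaks (58.1%) met 33725 day 6 peaks. There were 27459 one-to-one pairs, 3682 day 6 peaks that joined 9252 day 4 peaks, and 877 day 4 peaks that were split over 1847 day 6 peaks. Gained peaks covered 71.3 Mb and lost peaks 15.8 Mb. The 46.1 Mb shared by both lists was 65.8% of the length covered at day 4 and 29.3% of that at day 6. Gained and lost peaks were both short, with a median length of 500 bp, whereas kept peaks had a median of 887 bp at day 4 and 1660 bp at day 6.

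**Figure D1:**
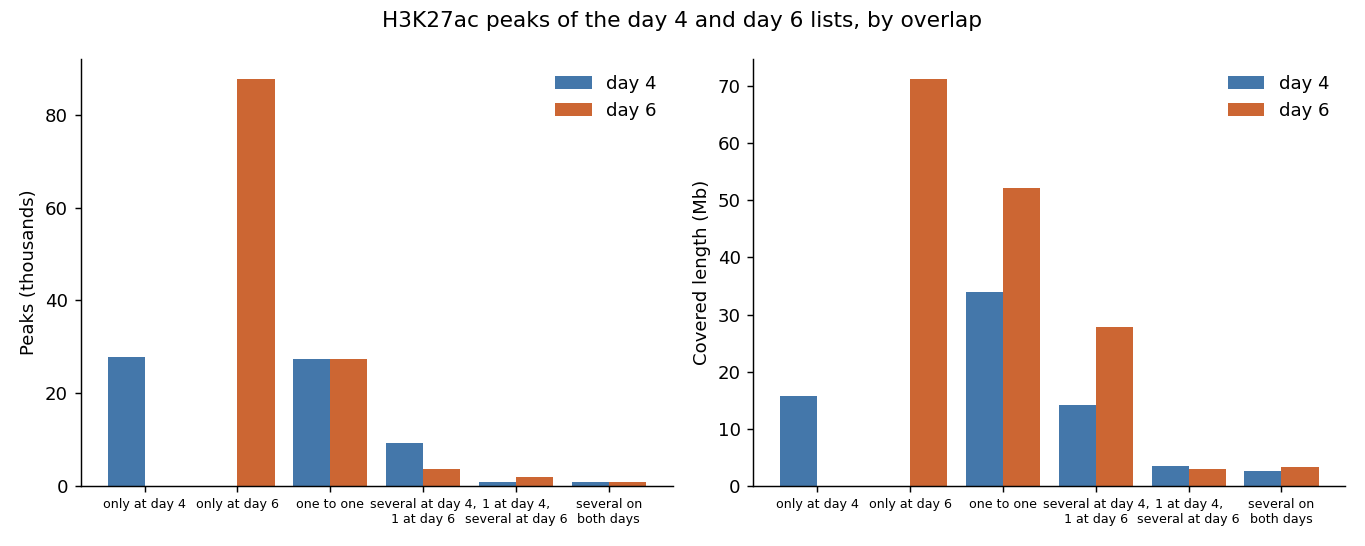
Peaks of the day 4 (blue) and day 6 (orange) lists by how they overlapped, as numbers of peaks (left) and as covered length in Mb (right), each bar being 1 list. The tallest bar in both panels is that of peaks found only at day 6, with 87826 peaks and 71.3 Mb.

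The limit of 1 bp decided few calls. Just inside it, 904 of the 33725 kept day 6 peaks shared less than 100 bp with day 4 peaks, and just outside it, 808 of the 87826 gained peaks lay within 100 bp of one. Of gained peaks 38757 (44.1%) lay within 5 kb of a day 4 peak and 56382 (64.2%) within 10 kb. Lost peaks likewise stood within 5 kb of a day 6 peak in 14689 of 27766 cases (52.9%).

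Kept regions were longer at day 6. Among one-to-one pairs 11808 of 27459 were widened (43.0%, 42.4–43.6), 13388 were similar and 2263 were narrowed (8.24%), and the median length was 835 bp at day 4 and 1480 bp at day 6. The widened peak with most added bp lay nearest to Cisd3, an iron-sulfur protein gene of mitochondria, and spanned 2711 bp at day 4 and 16175 bp at day 6 (chr11:97673443-97689618). The next was at Spsb1, with 714 bp at day 4 and 13804 bp at day 6.

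Joining produced the longest domains. A joined day 6 peak had a median length of 5810 bp, and of the 179 day 6 peaks of at least 20 kb, 160 were joined, 18 had several peaks on both days, 1 was one-to-one and 0 were gained. The gaps closed between joined day 4 peaks had a median of 1060 bp. The largest domain spanned 63850 bp (chr4:139230402-139294252), overlapped Capzb and replaced 17 day 4 peaks. The gene start nearest to its center was that of Slc66a1, 48.4 kb away and outside the domain. A domain of 49458 bp over the start of Dab2ip, a Ras GTPase-activating protein gene, also replaced 17. At Tnnt3, which encodes fast skeletal troponin T, 13 day 4 peaks became 1 peak of 47028 bp with 2240 normalized tags (chr7:142470050-142517078). Further domains in the 10 that joined most peaks lay at Zmiz1 (12 peaks, 46951 bp), Myh9, a nonmuscle myosin heavy chain gene (11 peaks, 53209 bp), Lyl1 (11, 50771 bp), and Spns2, Pitpnm2 and Prrc2b (11 each). The Lyl1 domain also overlapped Nfix and Trmt1.

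**Figure D2:**
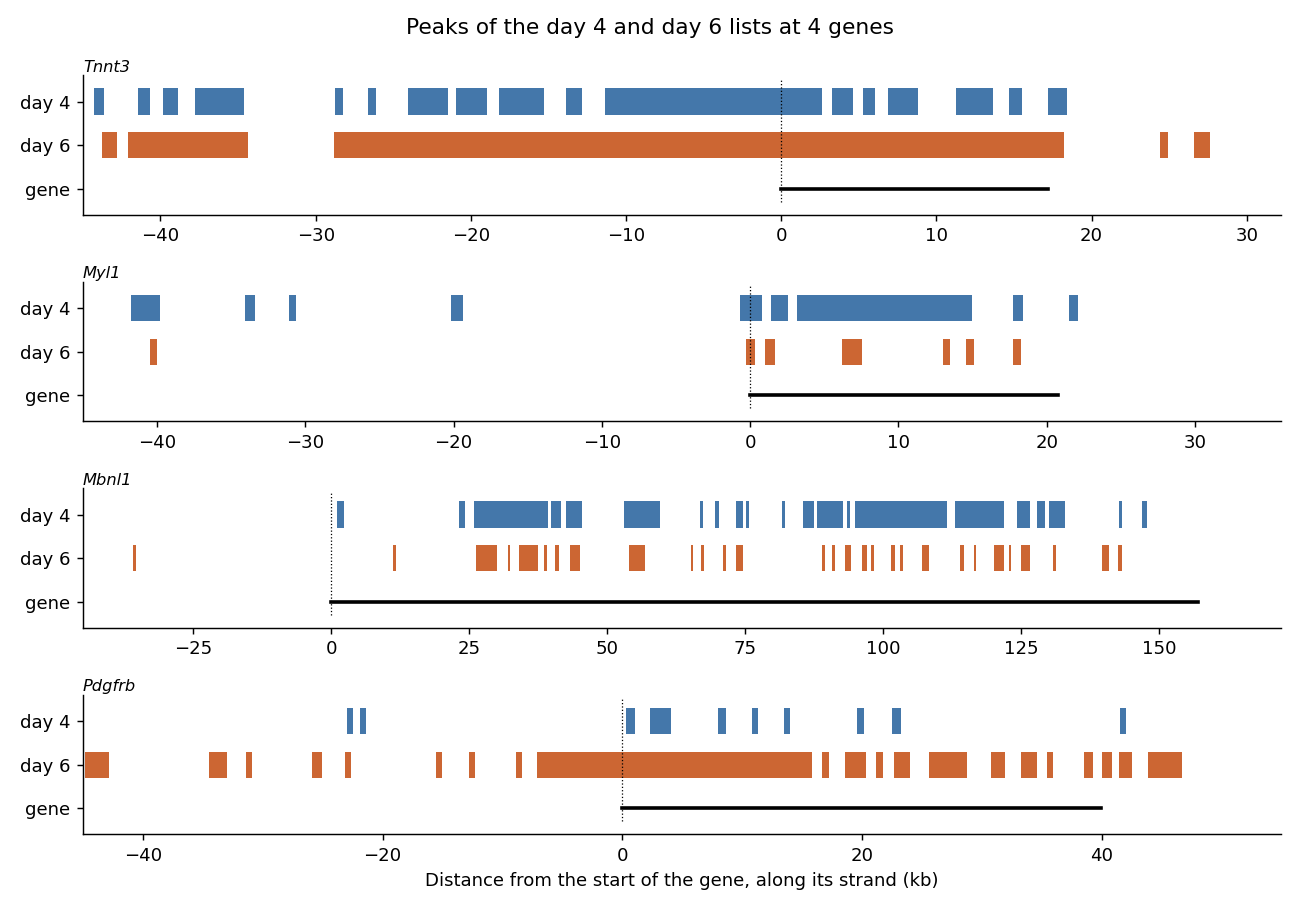
Peaks of the day 4 (blue) and day 6 (orange) lists around Tnnt3, Myl1, Mbnl1 and Pdgfrb, drawn to scale by distance in kb from the gene start along the strand of the gene, with the gene as a black line. Several day 4 peaks at Tnnt3 were 1 peak of 47028 bp at day 6, long day 4 peaks at Myl1 and Mbnl1 were short peaks at day 6, and the start of Pdgfrb lay in a peak of 22879 bp at day 6 only. Shorter day 4 peaks lay inside the span of that Pdgfrb peak.

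Several muscle genes had shorter coverage at day 6, and those named here were chosen after their values were seen. In the sarcomere list 8 of 39 genes had fewer bp and 31 more, beside 12.4% and 69.9% of all genes. The promoters of Myl1, the gene of the fast alkali myosin light chain, met peaks of 13288 bp at day 4 (189 normalized tags) and of 625 bp at day 6 (12.1). Lengths and tags at promoters are sums over the peaks that overlap any annotated promoter of the gene. At Myot, encoding the Z-disc protein myotilin, the lengths were 10616 and 500 bp, and at Myh4, encoding the fastest myosin heavy chain, 7029 and 756 bp. Mbnl1, a splicing regulator, had 70590 bp of peak in the gene and the 10 kb before it at day 4 and 30838 bp at day 6, the largest deficit of the 20021 autosomal protein-coding genes. Pde4d, Rbfox1, Zbtb20, Mef2c and Mylk4 followed it. The longest lost peak covered the start of Pgm1, which encodes phosphoglucomutase, with 11708 bp and 233 normalized tags at day 4 (chr4:99928759-99940467).

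Gained peaks were mostly those with fewer tags in the day 6 list. Ranked by normalized tags, 0 of the 1000 strongest day 6 peaks were gained, which allows a share of up to 0.300%, and the share was 2.58% for the next 9000 (232 peaks) and 91.2% beyond rank 60000. The same order held for lost peaks, with 5 of the 1000 strongest day 4 peaks and 4354 of the 6251 weakest (69.7%). Tags are summed over a peak, so rank went with length. The 1000 strongest had a median of 12400 bp at day 6 and 6390 bp at day 4, and the weakest classes 500 bp. A longer peak meets another more readily, and the part of length in these shares was not tested. The gained peak with most tags, 316 per 10 M and 69.8-fold over input, covered the starts of Brox and Aida (chr1:183296328-183298520). The next were long domains at Rgs3, a regulator of G protein signaling (255 tags, 8755 bp), Mxra7 (242, 10709 bp), Isyna1, the inositol-3-phosphate synthase gene (241, 10663 bp), and Ahnak2 (237, 7893 bp).

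By findPeaks Score the leading gained peaks were mostly short promoter peaks. They included Zfp458 (Score 84), Zfp2 (70), Ncapg (69), Zfp661 (67), Plekhm3 (66) and Prickle2 (65), and 7 of the 10 had their center within 1 kb of a gene start. The lost peaks of highest Score, such as those at Mroh2a (88) and Hjurp (86), were 500 to 2651 bp long, and their folds over input ranged over the 10 peaks from 2.03 at Zfp982 to 9.94 at Mpdz. The Mroh2a and Hjurp peaks had folds of 2.07 and 2.34, near the authors' limit of 2, with 31 and 20 input tags. Over all lost peaks the medians were a fold of 4.80 and 3 input tags.

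The lists that the comparison did not use held part of the same regions. Of gained peaks, 22967 (26.2%) met a peak in females at day 8, 1798 (2.05%) one in vehicle-treated females and 15709 (17.9%) one in vehicle-treated males. Lost peaks overlapped these lists in 13.5%, 3.58% and 6.46% of cases. Kept day 6 peaks did so in 83.9%, 32.6% and 61.7%. These 3 lists differed in length, with 80538, 37614 and 87199 autosomal peaks. The male lists of days 4, 6 and 8, with 17339, 31982 and 20355 peaks, met 1.63%, 1.96% and 1.22% of gained peaks. A longer list is met more readily, and the part of list length in these shares was not tested. Longer gained peaks, which meet a peak more readily by length alone, overlapped the female day 8 list more often. They did so in 18.9% of those under 1 kb, 49.4% from 1 to 2 kb, 74.8% from 2 to 5 kb and 192 of 195 of at least 5 kb. Of all gained peaks 53823 (61.3%), and of lost peaks 21578 (77.7%), overlapped none of the other 6 lists. Joined domains, which are long and so meet a peak more readily, overlapped at least 1 peak of female day 8 in 99.1% of cases, of male vehicle in 90.5% and of female vehicle in 52.9%.

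**Figure D3:**
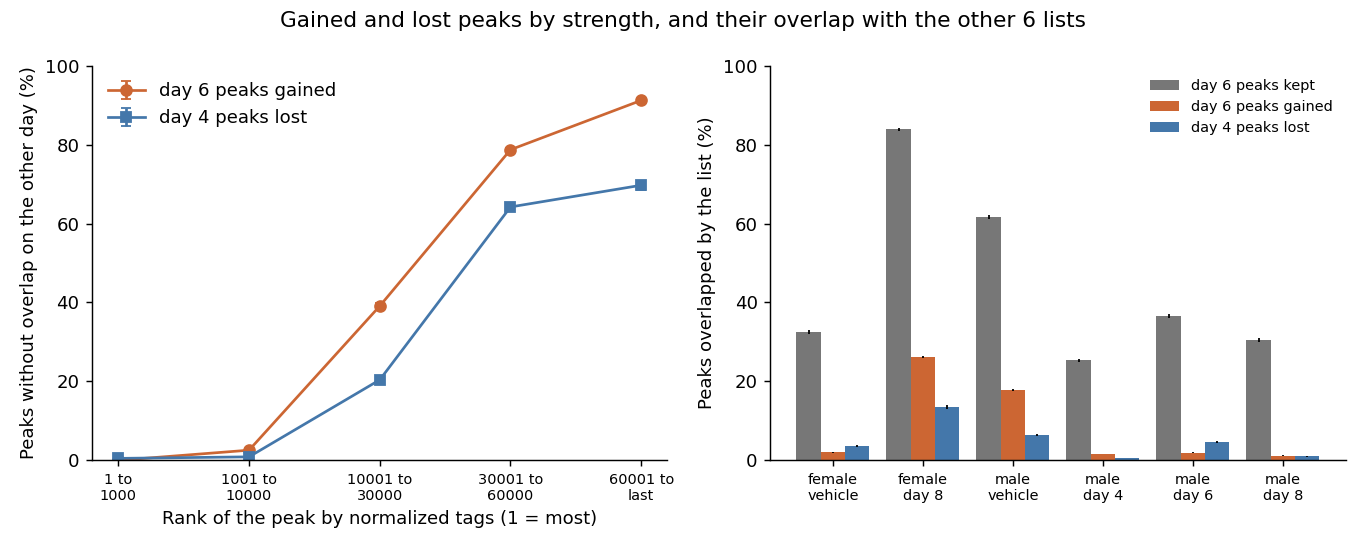
Left, percentage of day 6 peaks gained (orange) and of day 4 peaks lost (blue) by rank of normalized tags within the list. Right, percentage of kept day 6 peaks (gray), gained peaks (orange) and lost peaks (blue) that overlapped each of the other 6 lists. Bars are 95% Wilson intervals. The share gained was 0% for the 1000 strongest peaks and 91.2% for the weakest class, and the day 8 female list held 83.9% of kept and 26.2% of gained peaks. Peaks with more tags were longer, and the other lists differed in their number of peaks.

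A few regions stood against this background because all 6 other lists held them. The Brox peak and a peak at the start of Tmc7 were absent at day 4 alone. Of lost peaks 11 were absent at day 6 alone, with Pgm1, Alpk3, Ube2h, Slc4a4, Ypel3, Cnst, Slc15a4, Bcl6, Med16, Klhl38 and Terf2 as the nearest genes. Alpk3 encodes an alpha kinase of striated muscle, and its lost peak spanned 6845 bp. These genes were singled out after their values were seen. The nearest peak of the other day lay 2.30 kb from the Brox peak, 0.0150 kb from the Tmc7 peak and 4.11 kb from the Pgm1 peak.

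Gained and lost peaks were both mainly distal. By the peak center, 53.9% of gained peaks were intronic, 32.5% intergenic, 9.20% exonic and 2.31% in promoters (1 kb before to 100 bp after a start). Lost peaks were intronic in 53.4%, intergenic in 40.6% and in promoters in 0.825%, and kept day 6 peaks were in promoters in 13.5%. Read the other way, 229 of 5531 day 4 promoter peaks were lost (4.14%, 3.65–4.70), against 11272 of 18637 intergenic peaks (60.5%). At day 6, 2030 of 6572 promoter peaks (30.9%) and 28502 of 35165 intergenic peaks (81.1%) were gained. The median distance to the nearest start of a protein-coding gene was 25.2 kb for gained, 38.0 kb for lost and 12.2 kb for kept day 6 peaks.

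Base composition separated gained from lost peaks. In the 300 bp around the peak center the median GC content was 52.3% (interquartile range 49.3–55.0) for gained peaks, 45.7% (42.7–49.0) for lost peaks and 51.7% for kept peaks on either day. Of day 4 peaks with a GC content of 40% to 45%, 8848 of 13222 were lost (66.9%), and of those at 60% or above, 171 of 6873 (2.49%). The number of day 6 peaks per day 4 peak was 0.416 below 40% GC, 1.43 from 45% to 50%, 3.48 from 55% to 60% and 1.54 at 60% or above. The share of day 6 peaks that were gained was 79.0% from 55% to 60% and 44.2% at 60% or above. The difference between gained and lost peaks was 6.67 percentage points, and 6.33 points outside promoters.

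Whole lists differed in the same measure. The median GC content was 48.7% for day 4 and 52.0% for day 6, and over the 8 lists it ranged from 43.0% (female vehicle) to 53.3% (male day 4), with 51.0% at day 8 in females. Base composition moved with the day, its part in each result was not tested, and without values per library the day and the libraries cannot be told apart.

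**Figure D4:**
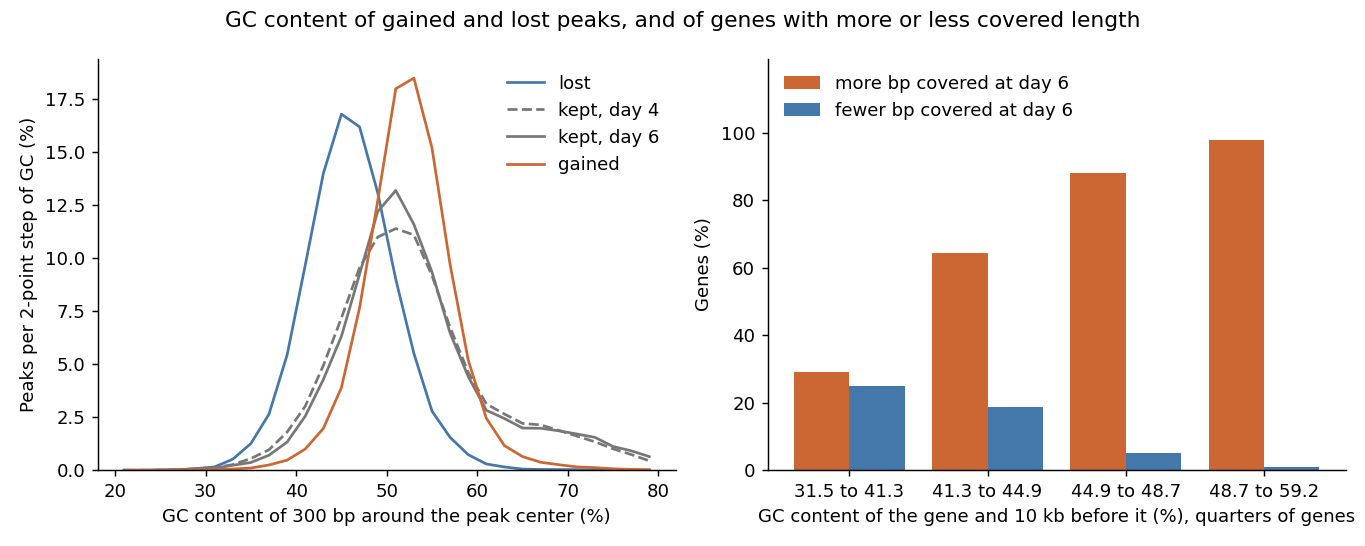
Left, distribution of GC content in the 300 bp around the peak center for lost, kept and gained peaks, in steps of 2 percentage points. Right, percentage of autosomal protein-coding genes with more (orange) or fewer (blue) bp covered by peaks at day 6, in 4 equal classes of the GC content of the gene and the 10 kb before it. The curve of lost peaks lies to the left of that of gained peaks (medians 45.7% and 52.3%), and the share of genes with more bp goes from 29.0% to 97.8%.

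Short motifs were counted in the same windows. The SP/KLF letters GGGCGG were found in 8.58% of gained, 3.12% of lost and 18.6% of kept day 6 windows, and in 35.7% of the 300-base promoters of RefSeq. The ETS letters CCGGAAG stood in 2.33% of gained, 1.14% of lost and 8.86% of those promoters. The A- and T-rich MEF2 consensus, bound by a family of muscle transcription factors, was in 1.73% of gained, 4.12% of lost and 3.17% of kept day 6 windows, in 4.95% of narrowed one-to-one peaks and in 3.19% of promoters. The letters ACANNNTGT of the glucocorticoid receptor were in 8.42% of gained, 10.4% of lost, 7.95% of kept day 6 windows and 6.85% of promoters. The E-box letters CAGCTG, read by MyoD among others, were in 23.5%, 16.0%, 20.7% and 16.3%. The AP-1 letters TGANTCA were in 8.41% of gained and 9.71% of lost windows. The ERR, NFI and NRF1 consensus letters were rare, in 0.811%, 0.0285% and 0.0729% of gained and 0.915%, 0.0216% and 0.0288% of lost windows. Over all peaks of both lists the glucocorticoid receptor letters were in 8.53% of windows, the MEF2 consensus in 2.68% and the SP/KLF letters in 11.5%. Gained and lost windows differed in GC content, and its part in these shares was not tested. Both strands were searched, and matches of different motifs may overlap.

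The comparison was repeated with both lists at the same number of peaks. The 66251 day 6 peaks of highest Score were taken, which set a limit at a Score of 13 and left 104 Mb. Of these 40969 were gained (61.8%, 61.5–62.2), and of the day 4 peaks 37067 were lost (55.9%, 55.6–56.3). The joined domains numbered 2909 and the widened pairs 8715 of 20738 (42.0%). Of the day 4 peaks that only the shorter day 6 list left without overlap, 7069 had been one-to-one and 2099 joined. At an equal Score per 10 M tags, a limit chosen after seeing the data, 16892 day 6 peaks were gained and 46620 day 4 peaks were lost, so that the order of the numbers turned. The Score is not a measure of a long domain, since in 3890 of the 3934 day 6 peaks of at least 5 kb it was below the mean number of tags per 500 bp. Of those 3934 peaks 3019 remained at equal numbers. The ones left out included the promoter peaks of Per1 and Klf15, whose day 6 peaks of 24927 and 18056 bp had 1840 and 1310 normalized tags.

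One-to-one peaks had more tags per length at day 6. The median density was 12.7 normalized tags per kb at day 4 and 23.9 at day 6, with a median log2 ratio of 0.96, and 863 of 27459 pairs (3.14%) were lower at day 6. Promoter pairs differed more, with medians of 17.4 and 56.2 tags per kb and a median log2 ratio of 1.67, against 0.84 for intronic pairs. GC content moved with this ratio as well, from 0.73 in the lowest of 4 GC classes of pairs to 1.59 in the highest. Among promoter pairs with a Score of at least 50 on both days the highest log2 ratios were at Emc2 (25.9 and 224 tags per kb, log2 ratio 3.11), Gosr1 (2.94) and Gnai3 (2.93), and the lowest at Mcur1 (24.2 and 45.4, log2 ratio 0.91) and Tmem41b (1.00). Relative to the median of all pairs, Mcur1 stood at -0.05 and Emc2 at 2.15.

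Of 20021 autosomal protein-coding genes, 10215 (51.0%) had a promoter peak on both days, 3387 (16.9%) at day 6 only and 189 (0.944%) at day 4 only. With equal numbers of peaks these were 2193 genes at day 6 only and 1722 (8.60%) at day 4 only. A promoter peak here is one that overlaps the promoter of a gene. Promoter peaks found at day 6 only had a median of 23.5 normalized tags and 1140 bp, and those at day 4 only had 6.13 tags and 500 bp. Over the gene and the 10 kb before it, 13986 genes (69.9%) had more bp of peak at day 6 and 2479 (12.4%) had fewer. The median was 1620 bp at day 4 and 3440 bp at day 6.

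The genes with most added coverage were long genes with many peaks. Prdm16, a transcription factor gene known from brown fat, had 10642 bp at day 4 and 132584 bp at day 6, in 15 and 92 peaks, and its promoter met a peak at day 6 only, in neither list at equal numbers of peaks. Zmiz1 had 61220 and 176156 bp, Sh3pxd2a 54378 and 163062 bp, and Ablim1 61741 and 164253 bp. By number of gained peaks the leading nearest genes were Med13l (90), Sulf2 (77), Foxp1 (74), Rora (74) and Agap1 (68). In all, 14681 genes were nearest to at least 1 gained peak and 10017 to at least 1 lost peak, and 8923 were nearest to both.

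Coverage of genes followed their GC content. With genes in 4 equal classes of GC content over the gene and the 10 kb before it, the share with more bp at day 6 was 29.0%, 64.4%, 88.2% and 97.8% from the lowest class to the highest, and the share with fewer bp was 24.9%, 18.6%, 5.01% and 0.959%. The share with a promoter peak at day 6 only was 7.89% in the lowest and 27.3% in the highest class. The genes with fewer bp had a median GC content of 41.3%, and those with more had 46.9%.

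The sarcomere list divided along this line. Of 39 genes, 28 had a promoter peak on both days, 6 at day 6 only and 1 at day 4 only, and 31 had more bp at day 6 and 8 fewer. Over all genes these shares were 51.0%, 16.9%, 0.944%, 69.9% and 12.4%. At equal numbers of peaks 7 of the 39 had a promoter peak at day 4 only, beside 8.60% of all genes. The members with more bp had a median GC content of 50.2% and those with fewer 41.4%. Flnc, the filamin C gene, had 15438 bp at day 4 and 31082 bp at day 6, and Mybpc2, the fast myosin-binding protein C gene, 11133 and 26198 bp. The members with fewer bp were Myot, Myl1, Neb, Myh4, Xirp2, Mybpc1, Lmod3 and Myoz1. Promoter peaks at day 6 only, in 6 of 39 genes beside 16.9% of all genes, were those of the light chain genes Myl2 and Myl3, the slow troponin genes Tnnt1 and Tnni1, the myosin heavy chain gene Myh2, and Neb, the gene of nebulin. At equal numbers of peaks the promoter of Tnni1 met a peak on neither day. Of other genes of slow fibers, Tnnc1 and Tpm3 had a promoter peak on both days and Myh7 on neither. Neb had fewer bp in all, 30260 at day 4 and 20696 at day 6. Xirp2, an actin-binding repeat protein gene, was the one with a promoter peak at day 4 only.

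Calcium handling genes had a like division, with 18 of 24 higher in covered bp at day 6 and 6 lower, beside 69.9% and 12.4% of all genes. Ryr1, the calcium release channel gene, had 27445 and 80294 bp, Cacna1s, the voltage sensor, 26292 and 47762 bp, and Camk2b 21272 and 61934 bp. Promoter peaks at Cacna1h, Camk2b and Casq2 were seen at day 6 only, 12.5% of the list beside 16.9% of all genes. That of Camk2b was in neither list at equal numbers of peaks. Fewer bp were at Jph1, a junctophilin gene (30296 and 18773 bp), Trdn, the triadin gene (14862 and 7671 bp), and the channel subunit gene Cacna2d1 (17911 and 9429 bp). More were at Jph2, the other junctophilin gene listed (54644 and 58341 bp), and Casq1, the calsequestrin gene of fast fibers (9404 and 12189 bp). The GC content of Ryr1 was 50.3% and that of Trdn 36.0%. Among the genes named with fewer bp, promoter tags were higher at day 6 at Jph1 (94.3 and 143) and Cacna2d1 (36.8 and 79.0). They were lower at Trdn (58.6 and 14.7).

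In glucose and glycogen metabolism all 24 genes found had a promoter peak on both days, 16 had more bp at day 6 and 8 fewer. Over all genes these shares were 51.0%, 69.9% and 12.4%. At equal numbers of peaks 3 of the 24 had a promoter peak at day 4 only, beside 8.60% of all genes. Hk2, the muscle hexokinase gene, had 30369 and 38685 bp, and Pygm, the muscle glycogen phosphorylase gene, 16156 and 22469 bp. Ppp1r3a, a glycogen-targeting phosphatase subunit gene, had 5779 and 628 bp, Gbe1, the branching enzyme gene, 6728 and 2708 bp, and Pdk4 6577 and 4460 bp. Normalized tags at their promoters were lower at day 6 at Ppp1r3a (41.7 and 19.3). They were higher at Gbe1 (49.0 and 82.9) and Pdk4 (59.0 and 195). In fatty acid metabolism 33 of 36 genes had more bp at day 6, beside 69.9% of all genes. They were led by Mgll, the monoglyceride lipase gene (27911 and 90133 bp), and Lpin1 (31031 and 56906 bp). Cd36, the fatty acid translocase gene, had 8173 and 2119 bp. Cidea, Fabp4, Chpt1 and Slc25a20 had a promoter peak at day 6 only, 11.1% of the list beside 16.9% of all genes. At equal numbers of peaks Cidea and Slc25a20 had one on neither day.

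Of the 28 genes of IGF1 and PI3K signaling found, 25 had more bp at day 6 and 3 had fewer, beside 69.9% and 12.4% of all genes. At Akt1 the promoter peak was 887 bp with 19.4 normalized tags at day 4 and 20305 bp with 722 at day 6, and the GC content of the region, 57.6%, was the highest in the list. Differences in covered bp were larger at Rptor (25195 and 79516 bp), Igf1r (19541 and 55375 bp), Foxo3 (16361 and 51577 bp) and Mtor (8151 and 39483 bp). Igf1 and Grb10 had a promoter peak at day 6 only, 7.14% of the list beside 16.9% of all genes. At equal numbers of peaks Igf1 had one on neither day. The 3 with fewer bp were Irs1, Pik3c2a and Rps6kb1. Their promoter peaks had more normalized tags at day 6, with 241 and 528, 52.3 and 197, and 40.6 and 110.

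Most known targets of the glucocorticoid receptor were acetylated on both days. Of 29 genes found, 25 had a promoter peak on both days, 24 had more bp at day 6 and 4 fewer. Over all genes these shares were 51.0%, 69.9% and 12.4%. Fkbp5 and Hsd11b1 had a promoter peak at day 6 only, 6.90% of the list beside 16.9% of all genes. At equal numbers of peaks 9 of the 29, Per1 and Klf15 among them, had one at day 4 only, beside 8.60% of all genes. Fkbp5, which encodes a chaperone of the receptor, had 7758 and 24684 bp and a promoter peak of 3432 bp at day 6 only. Zbtb16 had the most bp of the list on both days, 109510 and 154278. Per1 (12889 and 21011 bp) and Ampd3 (10773 and 34518 bp) also had more bp at day 6. Mstn, the gene of myostatin, a brake on muscle growth, had a promoter peak of 2033 bp at day 4 only. Fbxo32, encoding the ubiquitin ligase atrogin-1, had 21938 and 18718 bp. Its promoter peaks had 138 normalized tags at day 4 and 383 at day 6, so fewer bp did not go with fewer tags there.

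Regulators of myogenesis and mitochondria were mixed. Of 34 genes, 25 had more bp and 9 fewer at day 6, beside 69.9% and 12.4% of all genes. Besides Prdm16, Hdac4 had 69033 and 126649 bp, Ppard 25256 and 65088 bp, and Nfix 62443 and 93120 bp. Mef2c had 30466 and 13144 bp in 37 and 20 peaks, Myf6 6240 and 2198 bp, Ppargc1a, a coactivator of mitochondrial genes, 10454 and 4769 bp, and Eya4 11911 and 5649 bp. The GC content was 37.5% at Mef2c, 39.2% at Myf6 and 39.1% at Ppargc1a. Normalized tags at promoters were higher at day 6 at Myf6 (64.5 and 129) and Eya4 (49.8 and 153). They were 95.6 and 98.7 at Mef2c and 51.1 and 49.0 at Ppargc1a. A group of 10 lost peaks, each within 10 kb of the next, lay at Mef2c (chr13:83608084-83660170).

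The other lists had the same direction for most members. Oxidative phosphorylation genes had a promoter peak on both days in 29 of 29 cases, beside 51.0% of all genes. Of these 21 had more bp, with 6340 and 14676 bp at Sdhb. At equal numbers of peaks 6 of the 29 had a promoter peak at day 4 only, beside 8.60% of all genes. Circadian clock genes had more bp in 19 of 21 cases, among them Arntl (10895 and 40184 bp) and Npas2 (3346 and 25524 bp). Membrane and neuromuscular junction genes had more bp in 24 of 26 cases, with 25200 and 85899 bp at Dysf, the membrane repair gene, and 13331 and 5698 bp at Sgcd, the delta-sarcoglycan gene. The shares with more bp stand beside 69.9% over all genes. Each of the 10 gene lists had a higher median GC content in its members with more bp than in those with fewer.

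**Figure D5:**
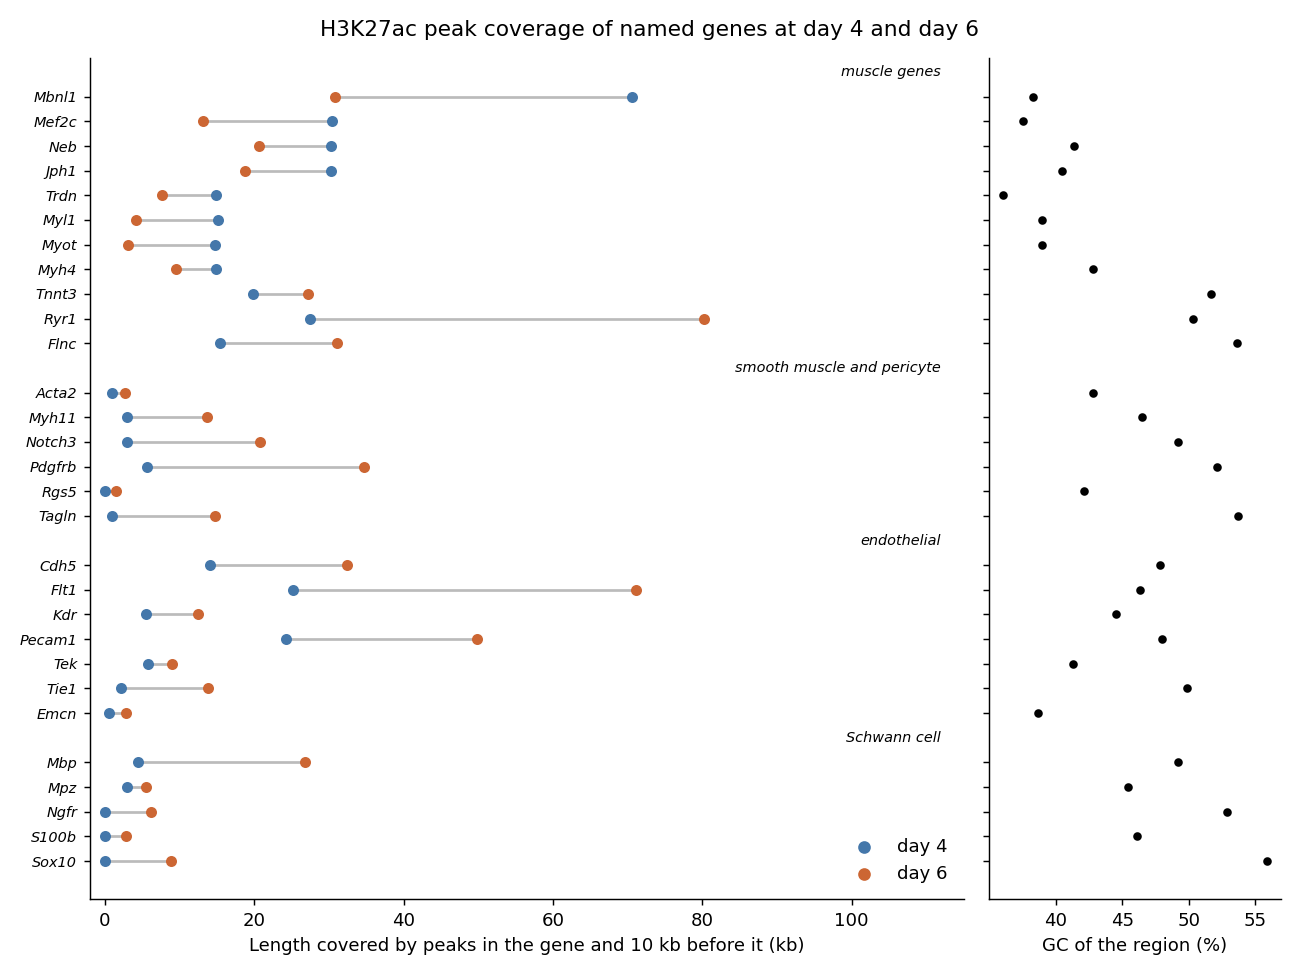
Length covered by peaks in the gene and the 10 kb before it at day 4 (blue) and day 6 (orange), in kb, for muscle genes and for markers of smooth muscle, endothelial and Schwann cells, with the GC content of the region in percent at right. Each point is 1 list. Mbnl1, Mef2c and Myl1 had less at day 6 and a GC content under 40%, and all 18 markers of these other cells had more at day 6. The muscle genes shown are a selection. In the whole lists 31 of 39 sarcomere genes and 8 of 10 myofiber markers had more at day 6. Markers of fibroblasts, satellite cells and immune cells, some with less at day 6, are not shown.

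Of 10 myofiber markers, 7 had a promoter peak at day 4 and 9 at day 6, and their summed coverage was 151 and 167 kb. Myh1 had none on either day. Smooth muscle and pericyte markers had a promoter peak in 1 of 6 cases at day 4 and in 6 of 6 at day 6, beside 16.9% of all genes with one at day 6 only, and their summed coverage was 13.6 and 88.3 kb. Pdgfrb, a growth factor receptor gene of pericytes, had 5610 and 34685 bp, and its promoter met a peak of 22879 bp at day 6 only. Shorter day 4 peaks lay inside the span of that peak, the nearest from 0.32 to 1.073 kb after the gene start. Notch3, Myh11, Acta2 and Rgs5 also had a promoter peak at day 6 only.

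Endothelial markers had more bp at day 6 in 7 of 7 cases, beside 69.9% of all genes (77.4 and 192 kb in sum), with 25210 and 71162 bp at Flt1. Schwann cell markers had more in 5 of 5 (7.34 and 50.2 kb), and Sox10, their defining transcription factor, had 0 and 8827 bp. Ngfr and S100b of the same list, Lep and Plin1 of the adipocyte list, and 4 of 9 immune markers likewise had a peak at day 6 and 0 bp at day 4. The share of all genes that did so was not counted, so these counts have no background beside them. Fibroblast markers summed to 12.4 and 45.2 kb, with 5 of 7 higher and Dcn lower, and Col1a1 had 3033 and 21525 bp. Satellite cell markers summed to 23.2 and 58.6 kb, with 5 of 7 higher and Myf5 lower, and Pax7, their defining transcription factor gene, had 2500 and 20795 bp. Immune markers summed to 10.3 and 20.9 kb, with 7 of 9 higher and Ptprc and Lyz2 lower. The shares of fibroblast, satellite cell and immune markers with more bp were near the 69.9% of all genes. Adipocyte markers summed to 5.54 and 13.7 kb and markers of other tissues to 5.17 and 17.5 kb. Adipoq, Alb and Neurod1 had no peak in the gene or the 10 kb before it on either day. The median GC content of these regions was 47.9% for smooth muscle and pericyte, 46.3% for endothelial and 49.2% for Schwann cell markers. It was 41.0% for fibroblast markers and 50.2% for markers of other tissues, beside 44.9% for all genes. A larger share of such cells, more acetylation per cell, and the GC content and length of the lists cannot be told apart in these bulk data. The part of other cells or of GC content in the gained peaks was not tested.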

How the data were processed

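H3K27ac ChIP-Seq libraries of isolated quadriceps myofibers were processed by the authors, who trimmed reads and aligned them to mm10. Peak calling used HOMER findPeaks (histone settings) against the input, keeping regions at 2-fold or more. The submitters' processing notes name TopHat2 2.1.0, Bowtie2 2.2.6 and HOMER. The way both libraries entered a list is not given in the sources used here. The deposited normalized tag count is a signal scaled by the authors to 10 M tags. The deposited findPeaks Score is a score that the authors did not scale for depth. The deposited ratio of H3K27ac to input tags (fold) and the deposited input tag counts, where a list gives them, were used as the authors gave them, and the deposited p-value of each peak was not used. Depth was recovered from the step between low tag values.

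Peaks were compared by overlap of 1 bp on the 19 autosomes. Classes used 45451 curated RefSeq transcripts of GRCm38.p6 (mm10), with the peak center assigned to the first that applied of promoter, gene end (TTS), exon, intron or intergenic, and 20021 protein-coding genes. Motifs were searched in 300 bp around the center. No test between days was possible from 1 peak list per group. Wilson 95% intervals cover counting error only, and a count of 0 was given the limit of 3 counts.

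Members, gene lists and motifs were chosen with earlier results of these data known. Named genes followed a rule: up to 10 each of gained and lost peaks by Score, joined domains by day 4 peaks, widened peaks by added bp, genes nearest to most gained peaks, and promoter pairs of extreme ratio, and in each list the members of largest difference or with a promoter peak on 1 day only. Peaks with most tags, genes with most or fewest bp, list members with fewer bp, and genes at matching sequences were added after their values were seen. Peaks with input tag density over 10 times the median of the list were not named, and the results of some genes are not reported here. The overlap and motif steps were tested on simulated peaks and sequences. Python 3.11.15, numpy 2.4.6, pandas 2.3.3 and matplotlib 3.10.9 were used.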

Additional observations from a re-analysis of the deposited data

How the results depend on the processing

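No paired analysis was possible because each group had a single peak list, and for the same reason no replicate could be left out. With both lists at 66251 peaks by Score, gained peaks numbered 40969, 2.86% of them in promoters, day 4 peaks kept were 44.1% and genes with a promoter peak at day 6 only were 2193. By fold over input the values were 40650 gained, 2.92% and 46.0%. By normalized tags, an alternative chosen after seeing the data, they were 37112 gained, 3.16% and 51.7%. At an equal Score per 10 M tags, also chosen after seeing the data, the day 6 list had 33830 peaks, of which 16892 were gained, 3.61% in promoters, 1951 joined and 5191 widened, while 46620 day 4 peaks were lost, 29.6% were kept and 1236 genes had a promoter peak at day 6 only. There more peaks were lost than gained. With a fold of at least 4 on both days, 2197 peaks were joined, 3.10% of gained peaks were in promoters and 49.9% of day 4 peaks were kept. Sharing defined as 50% coverage gave 2.90% and 50.8%, peaks up to 1 kb apart counted as shared gave 67.4% kept, and promoters of 2.5 kb gave 8.94%. Leaving out regions of high input and adding chromosome X moved none of the values beyond their limits. The difference in GC content between gained and lost peaks was 6.00 to 6.67 percentage points under the settings run for it, all of them chosen after seeing the data. At 49.0 and 30.6 M tags a weak peak missing from one list shows only that it was not called there.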
